A study of Mus musculus with 9 samples.

Results

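Foxc1, Foxc2, Twist1, Twist2, Prrx1, Prrx2, Tbx18, Osr1 and Zic1 encode transcription factors of the meninges and the head mesenchyme. They were chosen by name, and all 9 were found among the 21356 gene names of the expression table and were tested among 14029 genes. The head mesenchyme is the loose connective tissue, in part from cranial neural crest and in part from mesoderm, that builds skull bones, dermis, vessel walls and the meninges, the membranes that wrap the brain. Foxc1 and Foxc2 are forkhead factors, of which Foxc1 is required for normal meninges and skull growth. Twist1 and Twist2 are basic helix-loop-helix factors of mesenchymal cells, which bind DNA at E-boxes as dimers. Prrx1 and Prrx2 are homeodomain factors of limb and craniofacial mesenchyme, Tbx18 is a T-box factor also found in mural cells of vessels, and Osr1 is a zinc finger factor of loose connective tissue. Zic1, a zinc finger factor, differs from the others in that it is made by dorsal neural progenitors of the midbrain as well as by meningeal cells.

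The 9 factors were read in midbrain tissue of C57BL/6 mouse fetuses at E13.5 (embryonic day), with 3 libraries for each of 3 genotypes. The floxed control was Gpr161f/f, without Cre. The Cre control was Gpr161f/+;Wnt1-Cre, which carries the Cre transgene and 1 floxed allele. The third group is written Gpt161f/f;Wnt1-Cre in its labels, in which both alleles are floxed, and is called cKO here as in the study. Gpr161 is a receptor of the primary cilium that restrains Sonic hedgehog signaling. Wnt1-Cre acts in the dorsal neuroectoderm of the midbrain and in neural crest cells, so the Cre is active in the lineage of part of the head mesenchyme and in the dorsal midbrain itself. This kind of driver line is also known for raised Wnt1 expression in the midbrain. The Cre control differs from the floxed control by the transgene and by 1 intact allele, and these cannot be told apart.

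Gpr161 itself had means of 11.77 ± 0.030 in the floxed controls, 11.88 ± 0.096 in the Cre controls and 11.88 ± 0.12 in the cKO (log2 values, SD, n = 3 here and for each mean that follows). The table gives a single value per gene and does not separate the floxed part, so this value checks nothing about the deletion, and the groups rest on the labels. Gli1, a target of hedgehog signaling named here with its values known, was 8.62 ± 0.081, 8.65 ± 0.044 and 9.70 ± 0.10, so the 3 libraries labelled cKO stood apart from both controls. The midbrain markers En1 (10.71 ± 0.10 in the floxed controls) and Otx2 (11.32 ± 0.068) were present in each genotype and did not pass the test in any comparison. Of all 13 midbrain markers read, 5 others were lower in the cKO than in the floxed controls, beside 18.8% of all genes. A further 1 was higher, beside 19.5% of all genes. En1 and Otx2 thus do not show that the midbrain part of the tissue was equal between genotypes. The values are on a log2 scale, normalized between libraries, and the depth of the libraries is unknown. In bulk tissue, fewer cells of a type and less RNA per cell cannot be told apart. The sources do not say whether a library is 1 fetus or a pool, and the p-values measure the spread between these libraries.

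In the GENCODE annotation of GRCm38, no member overlaps another. Foxc1 (chr13:31806633-31812476), Twist1 (chr12:33957671-33959829) and Prrx2 (chr2:30834972-30881251) overlap no other gene. Foxc2 (chr8:121116171-121118895) shares its place with Gm20388 on the same strand. Zic1 (chr9:91358058-91365810) overlaps Zic4 on the opposite strand. Twist2 (chr1:91801461-91848028), Prrx1 (chr1:163245119-163313710), Tbx18 (chr9:87702800-87731260) and Osr1 (chr12:9570116-9581500) each overlap at least 1 noncoding gene or unassigned transcript on the opposite strand. Whether strand was used in the counting is not given, so reads from such overlaps may be shared.

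Per kilobase of exon, Zic1 had the highest level of the 9, with a mean of 10.3 on the log2 scale per kilobase over all 9 libraries, followed by Twist1 at 9.30 and Osr1 at 8.47. Foxc1 (7.44), Prrx1 (7.41), Prrx2 (7.25), Tbx18 (7.09), Twist2 (6.83) and Foxc2 (6.71) came next on the same scale. The steps from Zic1 to Twist1, to Osr1 and to Foxc1 were larger than the SD of any factor in any genotype. From Foxc1 downward, each step was smaller than the SD of the floxed controls for at least 1 of both neighbours, so their order is not resolved. Twist2 was the lowest in the floxed controls (6.13) and Foxc2 the lowest in the cKO (6.69). Whether the deposited values were already corrected for transcript length is not given in the sources used here.

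The promoters of the 3 factors that moved furthest together in the libraries and of Zic1, the factor that moved the other way, are printed to show the sequences at which these genes start. Windows of 300 bases, from 250 before to 50 after the annotated start, were read from RefSeq on GRCm38.p6 for 7 of the 9 genes, Foxc2 and Osr1 not among them. Both strands were searched for the TATA box TATAAA, for the E-box CANNTG and for the hedgehog effector motif GACCACCCA. Matches are in capitals, and each sequence reads 5′ to 3′ on the strand of its gene. The windows are Twist1 chr12:33957421-33957720 on the plus strand, Twist2 chr1:91801211-91801510 on the plus strand, Prrx1 chr1:163313601-163313900 on the minus strand and Zic1 chr9:91365719-91366018 on the minus strand.
Twist1: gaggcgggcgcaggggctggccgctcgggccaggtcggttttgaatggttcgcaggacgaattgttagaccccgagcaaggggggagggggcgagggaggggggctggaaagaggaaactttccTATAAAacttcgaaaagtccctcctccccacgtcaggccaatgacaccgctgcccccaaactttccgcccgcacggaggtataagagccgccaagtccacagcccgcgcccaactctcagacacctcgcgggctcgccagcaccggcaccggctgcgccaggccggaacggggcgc
Twist2: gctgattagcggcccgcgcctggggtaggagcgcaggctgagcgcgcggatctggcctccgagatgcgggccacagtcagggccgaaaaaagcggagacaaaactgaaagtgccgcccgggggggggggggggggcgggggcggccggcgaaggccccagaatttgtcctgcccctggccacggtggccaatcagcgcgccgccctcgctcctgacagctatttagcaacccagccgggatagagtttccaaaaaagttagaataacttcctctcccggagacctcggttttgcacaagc
Prrx1: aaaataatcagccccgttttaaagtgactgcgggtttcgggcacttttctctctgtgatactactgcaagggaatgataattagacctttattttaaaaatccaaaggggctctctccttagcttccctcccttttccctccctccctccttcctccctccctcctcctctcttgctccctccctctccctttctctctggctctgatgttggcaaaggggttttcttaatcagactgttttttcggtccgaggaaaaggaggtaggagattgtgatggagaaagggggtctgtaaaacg
Zic1: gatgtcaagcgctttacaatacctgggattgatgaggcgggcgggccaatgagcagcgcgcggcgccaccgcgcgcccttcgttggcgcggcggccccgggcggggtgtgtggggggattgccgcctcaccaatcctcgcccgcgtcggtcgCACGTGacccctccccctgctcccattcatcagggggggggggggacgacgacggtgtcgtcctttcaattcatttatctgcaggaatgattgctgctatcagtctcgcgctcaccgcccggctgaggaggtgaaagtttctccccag

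The window of Twist1 held TATAAA, 126 bases before the start, and was the only window among the 7 that did, beside 13.6% of the 32851 windows of all genes. An E-box was found in Zic1 (CACGTG, 98 bases before the start) and in Tbx18 (CAGATG, 168 bases before the start), and 72.3% of all windows hold at least 1. GACCACCCA was in 0 of the 7 windows and in 0.253% of all. The windows were richer in G and C in Twist1 (66.0%), Zic1 (65.3%) and Twist2 (64.7%) than in Prrx1 (47.7%), beside a median of 52.7% over all windows. These matches describe the letters of these windows alone.

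In cKO midbrain, 7 of the 9 factors were higher than in the floxed controls at an adjusted p under 0.05 (limma, Benjamini-Hochberg over all 14029 genes, here and for each adjusted p that follows). They were Twist2, Twist1, Prrx1, Prrx2, Foxc1, Tbx18 and Osr1, beside 19.5% of all genes tested that were higher by the same rule. Zic1 was the only factor that was lower, beside 18.8% of all genes, and Foxc2 did not pass. With a fold change over 1.5 as a further condition, Twist2, Twist1 and Prrx1 remained, beside 1.34% of all genes that were higher in this way. The values of all 3 cKO libraries lay above all 3 floxed controls for 5 factors, Twist1, Twist2, Prrx1, Prrx2 and Tbx18, beside 29.9% of all genes. The median log2 difference was 0.45 over the 9 factors and 0.011 over all genes.

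Compared with the Cre controls, 0 of the 9 factors were higher at an adjusted p under 0.05, beside 4.86% of all genes, and the only factor with an unadjusted p under 0.05 was Zic1. Zic1 was lower here too, beside 4.85% of all genes. Foxc1 and Prrx2 had all 3 cKO values above all 3 Cre controls, beside 17.8% of all genes. The median difference was 0.15 over the 9 factors and 0.012 over all genes. Of the 8 factors other than Zic1, 7 had a positive difference between 0.10 and 0.20, and Foxc2 had a difference of -0.17, with adjusted p from 0.296 to 0.702.

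Between the controls, 0 of the 9 factors passed, beside 0.057% of all genes (8 genes) that passed in either direction. At an unadjusted p under 0.05, 5 factors (Foxc1, Twist1, Twist2, Prrx2 and Tbx18) and 2451 of all genes were reached. Twist2 and Tbx18 had all 3 Cre controls above all 3 floxed controls, beside 10.7% of all genes. The median difference of the Cre controls from the floxed controls was 0.31 over the 9 factors and -0.0010 over all genes. By size of the difference, Twist2 ranked 10 and Twist1 ranked 31 from the top of all 14029 genes in this comparison. The 3 comparisons share libraries by pairs, so they are not independent of each other.

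**Figure D1:**
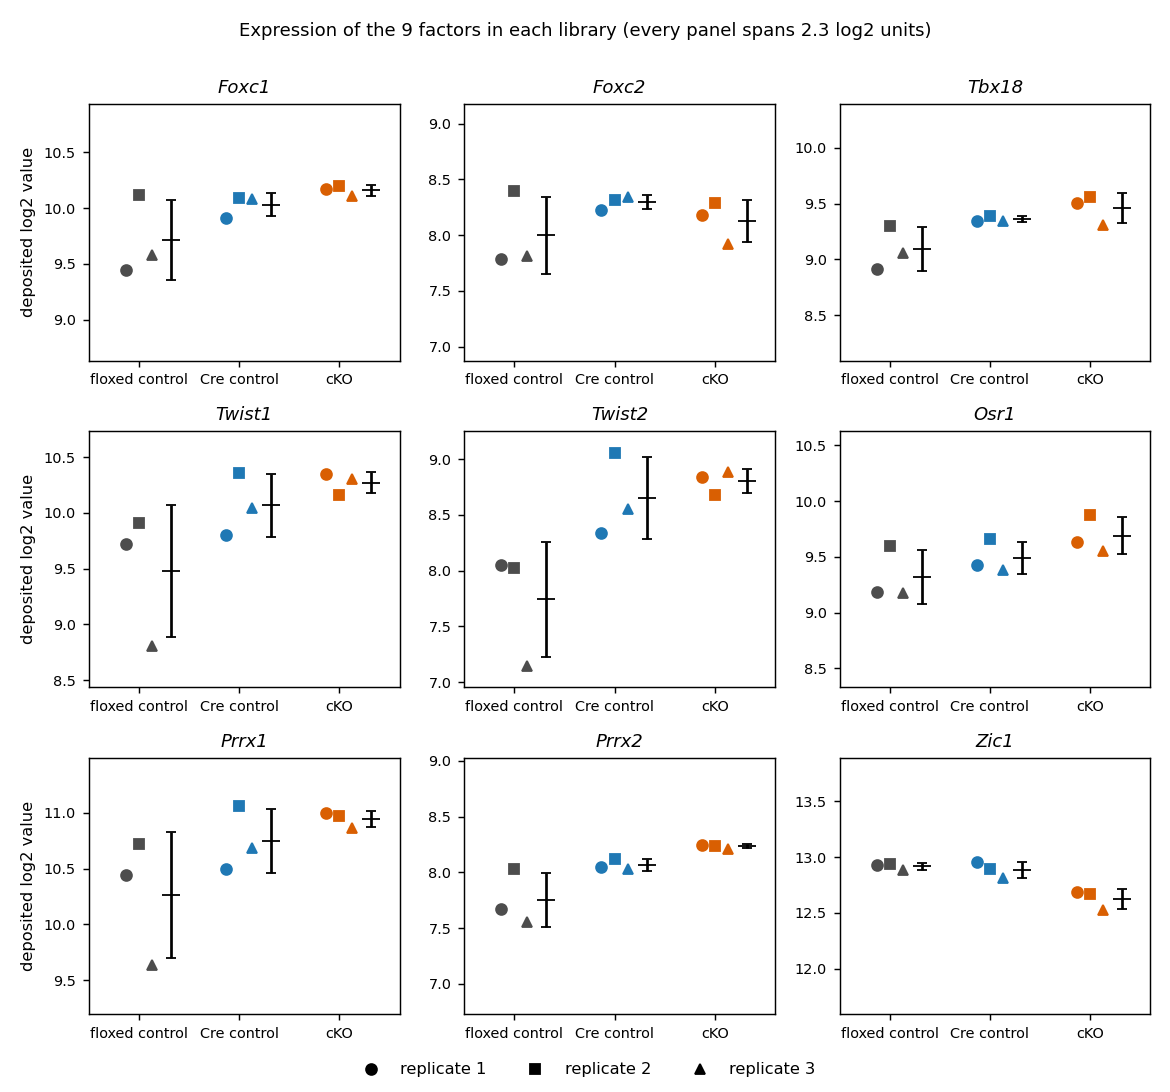
Deposited log2 value of each of the 9 factors (y axis, every panel spanning 2.3 log2 units) in the 3 libraries of each genotype (x axis), with the mean and SD beside them as a bar. For Twist1, Twist2 and Prrx1 the triangle of floxed control replicate 3 lies far below the other libraries (8.80, 7.15 and 9.63), and Zic1 is the panel in which the cKO lies lowest.

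Twist2, which acts in dermal and bone precursors, showed the largest difference of the 9. The values were 8.05, 8.03 and 7.15 in the floxed controls, 8.34, 9.06 and 8.56 in the Cre controls, and 8.84, 8.68 and 8.89 in the cKO. All Cre and cKO libraries lay above the floxed controls, and the highest library of all was a Cre control. The cKO was higher than the floxed controls by 1.06 ± 0.24 on the log2 scale (SE), a fold change of 2.09 (adjusted p = 0.00675). The cKO exceeded the Cre controls by 0.15 (adjusted p = 0.702), which turned to -0.0038 without Cre control replicate 1, and the Cre controls exceeded the floxed controls by 0.91 (adjusted p = 0.155). The call against the floxed controls was kept without any single library.

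Twist1, which is required for cranial neural tube closure and for the sutures of the skull, was likewise lowest in floxed control replicate 3 and highest in Cre control replicate 2. Its values were 9.72, 9.91 and 8.80 in the floxed controls, 9.80, 10.36 and 10.05 in the Cre controls, and 10.34, 10.16 and 10.30 in the cKO. The cKO lay above each floxed control and within the range of the Cre controls at its upper end. Twist1 was higher in the cKO than in the floxed controls by 0.79 ± 0.24 (1.73-fold, adjusted p = 0.0269) and than in the Cre controls by 0.20 (adjusted p = 0.609). Without floxed control replicate 3 the first of these fell to 0.46 (adjusted p = 0.0416), and without each cKO library in turn the adjusted p was between 0.0512 and 0.0811.

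Prrx1, which marks osteogenic and connective tissue progenitors, had values of 10.44, 10.72 and 9.63 in the floxed controls, 10.50, 11.06 and 10.68 in the Cre controls, and 11.00, 10.97 and 10.87 in the cKO. Again floxed control replicate 3 was the lowest library and Cre control replicate 2 the highest. The cKO was higher than the floxed controls by 0.68 ± 0.23 (1.60-fold, adjusted p = 0.0421) and than the Cre controls by 0.20 (adjusted p = 0.603). This call was lost without floxed control replicate 1 or 3, without Cre control replicate 3 and without each cKO library (adjusted p from 0.0551 to 0.110), and the difference without floxed control replicate 3 was 0.37. It was also lost with no filter on low values (adjusted p = 0.0598).

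Prrx2, the paralog of Prrx1, changed by less and varied less between libraries. It had 7.67, 8.03 and 7.56 in the floxed controls, 8.05, 8.12 and 8.03 in the Cre controls, and 8.25, 8.24 and 8.21 in the cKO, and the cKO libraries lay above all other libraries. The difference of the cKO was 0.48 ± 0.10 from the floxed controls (1.40-fold, adjusted p = 0.00525) and 0.17 ± 0.10 from the Cre controls (adjusted p = 0.296). The first was kept without any single library. Without floxed control replicate 2, the Cre controls were higher than the floxed controls by 0.45 (adjusted p = 0.0359), in place of 0.31 (adjusted p = 0.194) with all libraries.

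Foxc1 and Foxc2 are partly redundant in mesodermal tissues, and of this pair only Foxc1 passed the test. Foxc1 had 9.44, 10.12 and 9.58 in the floxed controls, 9.91, 10.09 and 10.08 in the Cre controls, and 10.17, 10.20 and 10.10 in the cKO. Floxed control replicate 2 overlapped the cKO and the other floxed controls lay below every other library. The cKO was higher than the floxed controls by 0.45 ± 0.14 (1.36-fold, adjusted p = 0.0302), a call that was lost without floxed control replicate 1 or 3 and without each cKO library (adjusted p from 0.0569 to 0.109). Against the Cre controls the difference was 0.13 (adjusted p = 0.568). The Cre controls passed against the floxed controls without floxed control replicate 2, with 0.52 (adjusted p = 0.0359) in place of 0.32 (adjusted p = 0.282).

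Foxc2 had 7.78, 8.39 and 7.81 in the floxed controls, 8.22, 8.31 and 8.35 in the Cre controls, and 8.18, 8.28 and 7.92 in the cKO. The 3 genotypes overlapped, and floxed control replicate 2 was the highest library of all. Its difference in the cKO was 0.13 ± 0.15 from the floxed controls (adjusted p = 0.523) and -0.17 ± 0.15 from the Cre controls (adjusted p = 0.495). Without floxed control replicate 2 the first was 0.33 (adjusted p = 0.0326). Whether Foxc1 and Foxc2 differ in this was not tested.

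Tbx18, known from pericytes, other mural cells and meningeal tissue, had 8.91, 9.30 and 9.06 in the floxed controls, 9.35, 9.39 and 9.35 in the Cre controls, and 9.51, 9.56 and 9.31 in the cKO. Every Cre and cKO library lay above every floxed control, and cKO replicate 3 lay below the Cre controls. The cKO was higher than the floxed controls by 0.37 ± 0.095 (1.29-fold, adjusted p = 0.0127). This call was kept without any single library, but narrowly. Without floxed control replicate 1 or 3 and without cKO replicate 1 or 2, the adjusted p was between 0.0460 and 0.0498. From the Cre controls the cKO differed by 0.10 (adjusted p = 0.518).

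Osr1 had 9.19, 9.60 and 9.18 in the floxed controls, 9.43, 9.66 and 9.39 in the Cre controls, and 9.64, 9.88 and 9.55 in the cKO. In each genotype replicate 2 was the highest library, and floxed control replicate 2 overlapped the cKO. The difference of the cKO was 0.37 ± 0.12 from the floxed controls (1.29-fold, adjusted p = 0.0391) and 0.20 ± 0.12 from the Cre controls (adjusted p = 0.311). The first was lost without floxed control replicate 1 or 3 and without cKO replicate 1 or 2 (adjusted p from 0.0747 to 0.138), and with no filter on low values (adjusted p = 0.0544).

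Zic1 had 12.93, 12.94 and 12.88 in the floxed controls, 12.96, 12.89 and 12.82 in the Cre controls, and 12.68, 12.67 and 12.53 in the cKO. All cKO libraries lay below all controls, and the controls overlapped each other. The difference of the cKO was -0.29 ± 0.053 from the floxed controls (1.22-fold lower, adjusted p = 0.00266) and -0.26 ± 0.053 from the Cre controls (1.20-fold lower, adjusted p = 0.0198). The former was called without any single library, and the latter had an adjusted p of 0.0517 without Cre control replicate 2 and of 0.0570 in a fit to only the 6 libraries compared. Between the controls the difference was -0.029 (adjusted p = 0.799).

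Zic2, Zic4 and Zic5, which share the zinc finger domain of Zic1 and are active in the dorsal neural tube, had negative differences too. Zic4 was lower in the cKO than in the floxed controls by a log2 difference of -0.24 (adjusted p = 0.0454). Zic2 had a difference of -0.087 (adjusted p = 0.195) and Zic5 of -0.089 (adjusted p = 0.273). Zic1 was the only gene of these 4 that passed against the Cre controls. The value of Zic4 may not be independent of that of Zic1, since the genes overlap.

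**Figure D2:**
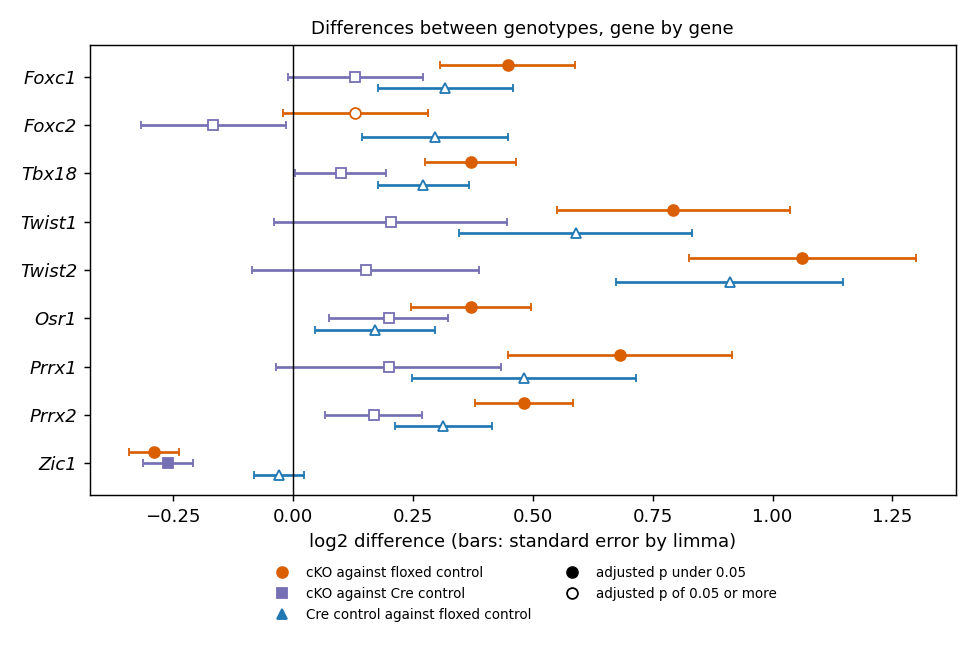
Log2 difference between genotypes for each factor (x axis, with the standard error from limma as a bar), for the cKO against the floxed controls (circles), the cKO against the Cre controls (squares) and the Cre controls against the floxed controls (triangles); filled symbols have an adjusted p under 0.05. Circles are filled for 8 factors, from -0.29 for Zic1 to 1.06 for Twist2, and among the squares only Zic1 (-0.26) is filled.

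The 9 factors varied most between the floxed controls. The SD over the 3 libraries was higher in the floxed controls than in the cKO for 8 of the 9 factors, beside 48.6% of all genes, and higher than in the Cre controls for 8 of 9, beside 36.0% of all genes. Zic1 was the exception in both. The median SD of the factors was 0.34 in the floxed controls, 0.10 in the Cre controls and 0.096 in the cKO, and that of all genes was 0.054, 0.079 and 0.055. Floxed control replicate 3 was the lowest floxed library for Twist1, Twist2, Prrx1 and Prrx2, and by a small margin for Osr1. Floxed control replicate 1 was the lowest for Foxc1, Foxc2 and Tbx18. Both of these libraries lay below the mean of the 9 libraries for the 8 factors other than Zic1.

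Across the 9 libraries, Twist1 and Prrx1 were alike with a Pearson r of 0.986, and of 0.976 with the mean of each genotype removed. Twist1 and Twist2 had 0.969, and 0.967 with the genotype means removed. Foxc1 and Foxc2 had 0.781, and 0.920 with the genotype means removed. Zic1 had r between -0.59 and 0.12 with the other 8, and between 0.035 and 0.47 with the genotype means removed. These values are descriptions over 9 libraries, which share their normalization and fall into 3 genotypes.

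**Figure D3:**
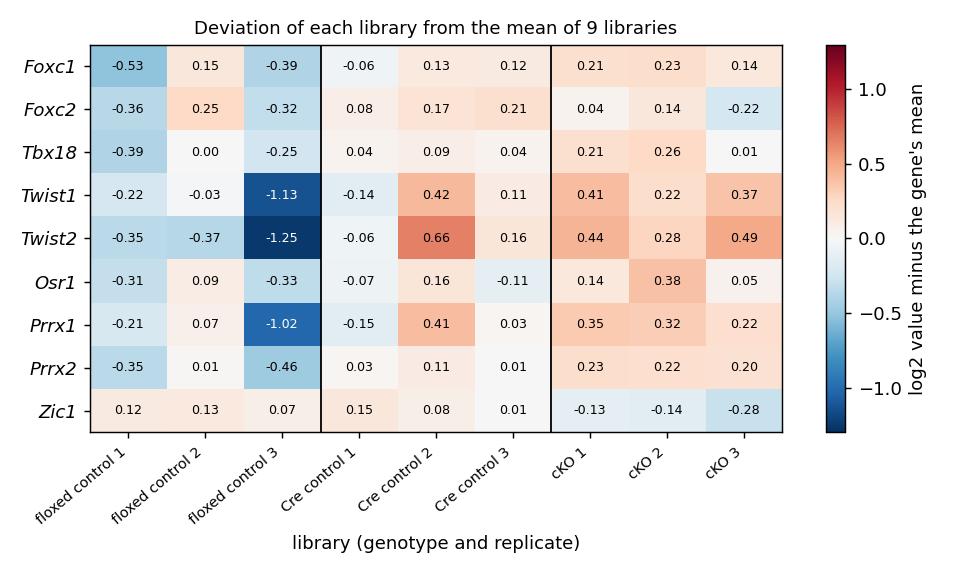
Deviation of each library (columns, by genotype and replicate) from the mean of the 9 libraries, in log2 units, for each factor (rows), with the value printed in each cell and blue for lower and red for higher. Floxed control 3 is darkest blue for Twist2 (-1.25), Twist1 (-1.13) and Prrx1 (-1.02), while Zic1 is above its mean in the 6 control libraries and below it in the 3 cKO libraries.

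Among all genes tested, those most like each factor over the 9 libraries came in part from the same set. The gene nearest to Twist1 was Prrx1, followed by P4ha2, an enzyme of collagen maturation (r = 0.983), and Tnmd, a tendon gene (r = 0.978). The nearest to Twist2 was Cxcl14, a chemokine (r = 0.989), and P4ha2 came next (r = 0.984). To Prrx1 the nearest were Gxylt2 (r = 0.987), Twist1, and the T-box factor Tbx15 (r = 0.972).

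For 5 of the other factors the nearest genes were Gadd45b for Prrx2 (r = 0.990), Zyx for Osr1 (r = 0.981), Snx7 for Tbx18 (r = 0.978), Cthrc1 for Foxc1 (r = 0.976), and Zkscan16 for Zic1 (r = 0.969). Wls, a carrier of Wnt ligands, was next for Tbx18 (r = 0.972), and Chrdl1, a BMP antagonist, was among the 3 nearest to Zic1 (r = 0.958). With the genotype means removed, the nearest gene named here had an r over 0.90 for each of these factors except Zic1, where Zkscan16 had 0.828. Each near gene was picked from 14029 for its r over these same 9 libraries. High values, also with the genotype means removed, follow in part from this choice and check nothing.

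Markers of meningeal fibroblasts, the cells in which several of these factors are known, were in part higher in the cKO. Of 26 markers, 25 were tested (Nppc was not), 13 were higher than in the floxed controls, beside 19.5% of all genes, 0 were lower and 12 did not pass. The median difference was 0.47 over the list. Col3a1 (0.77, adjusted p = 0.00832) and Lum (0.72, adjusted p = 0.00438), both of the collagen matrix, were among those that rose, and Pdgfra, the receptor of mesenchymal progenitors, rose by 0.53 (adjusted p = 0.0247). Of the 25, 22 had a positive difference, passing or not. Those below 0 were Ptgds (-0.26, adjusted p = 0.333), Aldh1a2 (-0.13, adjusted p = 0.358) and Ngfr (-0.020, adjusted p = 0.913), so the list did not move as a whole.

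Col1a1, the main fibrillar collagen, had 13.09, 13.57 and 12.15 in the floxed controls, 12.75, 13.75 and 13.60 in the Cre controls, and 13.74, 13.65 and 13.72 in the cKO. It was lowest in floxed control replicate 3, as Twist1, Twist2, Prrx1 and Prrx2 were, and did not pass (0.77, adjusted p = 0.0901). The level summed over the 26 markers, on the linear scale, was 93048 to 127689 in the floxed controls, 105819 to 142637 in the Cre controls and 144453 to 154604 in the cKO. The cKO libraries thus lay above every control in this sum. A linear sum is weighted to its most abundant genes, here Vim (mean of 15.03 in the cKO), Igf2 (14.59), Col3a1 (14.51), Col1a2 (14.02) and Col1a1 (13.71). It therefore does not describe the 26 markers evenly.

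Against the Cre controls, 3 of the 25 meningeal markers were higher, beside 4.86% of all genes, and 0 lower, with a median of 0.20. These were Crabp2, a retinoic acid binding protein of the meninges (0.35, adjusted p = 0.0132), Vim (0.24, adjusted p = 0.0175) and Lama1 (0.44, adjusted p = 0.0358). Vim is also abundant in neural progenitors. Between the controls 0 passed, beside 0.057% of all genes, with a median of 0.23.

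Of 34 other transcription factors of head mesenchyme and cranial neural crest, 26 were tested. In the cKO against the floxed controls 7 of these were higher, beside 19.5% of all genes, and 4 lower, beside 18.8%, so both counts lay near those of all genes. The median difference was 0.14. Alx4 (0.79, adjusted p = 0.00237) and Tbx15 (0.81, adjusted p = 0.0153), both of cranial mesenchyme, rose. Tfap2b, which is made in neural crest and also in midbrain neurons, was lower by a log2 difference of -0.80 (adjusted p = 0.000216), and Ebf2 by -0.44 (adjusted p = 0.00113). Tfap2b (-0.57, adjusted p = 0.00462) and Shox2 (-0.33, adjusted p = 0.0215) were also lower than in the Cre controls, beside 4.85% of all genes.

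Markers of vessel cells were in part higher in the cKO than in the floxed controls. Of 12 pericyte and mural cell markers, 6 were higher than in the floxed controls, beside 19.5% of all genes, 0 were lower and 6 did not pass. Acta2 (1.23, adjusted p = 0.0191), Tagln (1.01, adjusted p = 0.00271) and Myl9 (0.84, adjusted p = 0.00529) had the largest differences. The summed level was 12580 to 14795 in the floxed controls, 12960 to 15707 in the Cre controls and 16467 to 18219 in the cKO. This sum is weighted to its most abundant genes, here Notch3 (mean of 12.24 in the cKO), Acta2 (11.36) and Vtn (11.10). It therefore does not describe the 12 markers evenly. Notch3 (0.22, adjusted p = 0.0294) and Ndufa4l2 (0.29, adjusted p = 0.0135) were also higher than in the Cre controls, beside 4.86% of all genes. Pdgfrb, the defining receptor of pericytes, was not called in any comparison (0.13 from the floxed controls, adjusted p = 0.423). Of these 12, 9 had a positive difference from the floxed controls. Those below 0 were Rgs5 (-0.049, adjusted p = 0.612), Abcc9 (-0.015, adjusted p = 0.938) and Vtn (-0.014, adjusted p = 0.934). Of 12 endothelial markers, 8 were higher than in the floxed controls, beside 19.5% of all genes, and 0 lower. Pecam1 was among them (0.25, adjusted p = 0.0219), and 4 did not pass. Against the Cre controls 0 of the 12 passed, beside 4.86% of all genes that were higher and 4.85% that were lower. Their summed level was 8278 to 10554 in the floxed controls, 9152 to 11450 in the Cre controls and 11081 to 11842 in the cKO.

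Markers of surface ectoderm and epidermis, the covering over the head mesenchyme, showed the largest median difference among the lists. Of 10, 9 were higher in the cKO than in the floxed controls, beside 19.5% of all genes, and 0 lower, with a median of 1.05. Krt5, the keratin of basal epidermis, had 7.30, 7.33 and 7.39 in the floxed controls, 8.12, 10.48 and 9.70 in the Cre controls, and 10.54, 10.35 and 10.51 in the cKO. In the Cre controls replicate 1 was lowest and replicate 2 highest, the order also seen for Twist1, Twist2 and Prrx1, whereas the floxed controls were nearly equal for Krt5 and far apart for these factors.

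Krt5 was higher in the cKO than in the floxed controls by 3.13 (adjusted p = 0.000961) and than in the Cre controls by 1.04 (adjusted p = 0.151). Epcam (0.57, adjusted p = 0.00896), Trp63 (0.55, adjusted p = 0.0435) and Cdh1 (0.44, adjusted p = 0.0430) of this list were higher than in the Cre controls, beside 4.86% of all genes. The summed level of the 10 markers was 1134 to 1304 in the floxed controls, 1375 to 3719 in the Cre controls and 3735 to 4210 in the cKO. The part of meningeal, vessel or surface tissue in the differences of the 9 factors was not tested.

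Other tissues were read from 4 further lists. Of 12 cartilage and bone markers, 8 were tested, 2 were higher than in the floxed controls, beside 19.5% of all genes, and 0 lower, and the median difference was 0.20. Alpl, the phosphatase of mineralizing cells, was higher than in both controls (0.49 and 0.37, adjusted p = 0.00140 and 0.0212), while Col2a1 of cartilage differed from the floxed controls by -0.00075 (adjusted p = 0.994). Of 10 skeletal muscle markers, 4 were tested and 0 passed, and Myod1, the muscle determination factor, was at 0.68 to 0.74 in the floxed controls, under the minimum for the test. Of 10 roof plate and dorsal midline genes, 1 was higher (Bmp7, 0.34, adjusted p = 0.0264) and 1 lower (Msx3, -0.71, adjusted p = 0.00577) than in the floxed controls, both shares under those of all genes. Against the Cre controls 0 of these 10 passed, beside 4.86% of all genes that were higher and 4.85% that were lower. Of 13 midbrain identity markers, 1 was higher than in the floxed controls, beside 19.5% of all genes, and 5 were lower, beside 18.8%. The higher gene was Gata2, a factor of midbrain GABAergic neurons, which also passed against the Cre controls (0.24 and 0.26, adjusted p = 0.00525 and 0.0177), and Pou4f1, a factor of tectal neurons, was lower than in both controls (-0.60 and -0.61, adjusted p = 0.00148 and 0.00896). No list had a gene at 0 in every library, and between the controls 0 genes passed in each list, beside 0.057% of all genes.

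**Figure D4:**
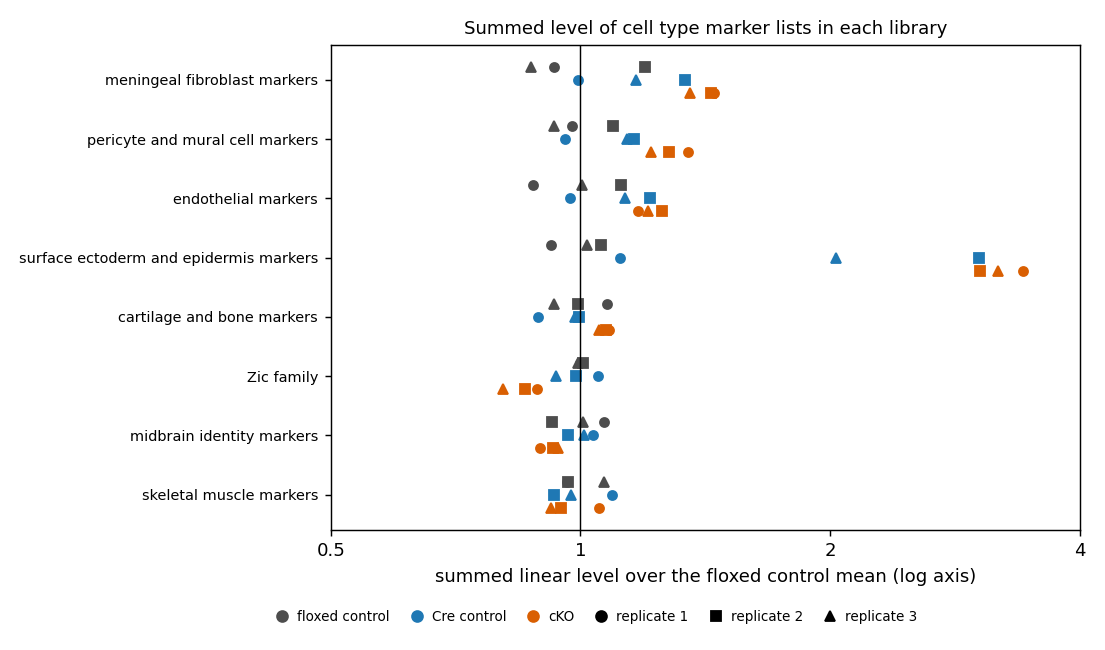
Summed linear level of 8 lists of marker genes (rows) in each library, divided by the mean of the floxed controls (x axis, log scale), with colour for the genotype and shape for the replicate. The mean of the cKO is 3.21 for surface ectoderm and epidermis, 1.41 for meningeal fibroblasts, 1.28 for pericytes and mural cells, 1.21 for endothelium and 0.851 for the Zic family. Each sum is weighted to the most abundant genes of its list.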

How the data were processed

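Midbrain RNA was poly-A selected (NEBNext Ultra RNA) and sequenced on an Illumina HiSeq instrument. The submitters' processing notes name FastQC 0.10.1, kallisto 0.46.1, DESeq2 and mm10, with no role or order. The authors deposited 1 table of log2 values for 27360 rows in 9 libraries. The values show that libraries were scaled to each other and that low values were shrunk. The transformation is not named and the table holds no counts, so depth is unknown.

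Of these rows, 5764 carry no gene name. Named genes were kept where the linear value reached 1 cpm in 3 or more libraries, and 118 rows with repeated names were dropped, which left 14029. A linear model with 3 genotype means was fitted to the 9 libraries together (R 4.3.3, limma 3.58.1), and eBayes was run with its trend option. Tests were two-sided, with Benjamini-Hochberg adjustment over all genes, and a gene was called at an adjusted p under 0.05. The script was tested on simulated data. With 3 against 3 libraries the smallest permutation p is 0.1, so no permutation test was used.

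The members and the gene lists, written from general knowledge, were chosen with earlier results of these data known. Genes named are the 9 factors, of each list those with the smallest p in the cKO against each control and its defining markers, other Zic genes, Gpr161, and genes among the 3 most like each factor by Pearson r. Some genes that this rule names are not reported here. Gli1, Col3a1, Lum, Alx4, Ptgds, Aldh1a2, Ngfr, Rgs5, Abcc9, Vtn, Acta2 and Myl9 were chosen after their values were seen. Summed levels add linear values over a list, so the most abundant genes weigh most. Alternatives were other filters, thresholds, libraries, scalings, the trend and the replicate number. Positions are from GENCODE M21 and promoters from RefSeq.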

Additional observations from a re-analysis of the deposited data

How the results depend on the processing

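Over the 9 factors, 3 comparisons and 16 alternatives to the fit, 404 of 432 differences kept their direction and their side of the threshold, 22 lost the call, 4 gained it and 2 changed sign. Many alternatives, such as other filters or leaving out a library of the genotype not compared, cannot alter the difference and bear only on the adjusted p. The 22 losses could fall only on differences called in the main fit, 8 against the floxed controls and 1 against the Cre controls. The 404 is therefore no measure of how firm the calls are. The changes of sign were Twist2 in the cKO against the Cre controls (-0.0038 without Cre control replicate 1) and Zic1 in the Cre controls against the floxed controls (0.0072 without Cre control replicate 3), and neither was called. When each library was left out in turn, these differences ranged from -0.0038 to 0.35 and from -0.064 to 0.0072. In the cKO against the floxed controls, 8 factors were called, 3 with a fold change over 1.5 at either an adjusted or an unadjusted p under 0.05, and 4 to 9 when a library was left out. The count was 5 without floxed control replicate 1 or 3 and without cKO replicate 3, and 4 without cKO replicate 1 or 2. Against the Cre controls, 1 factor was called, 0 with the fold change at either p, 0 in a fit to only the 6 libraries compared, and 0 to 1 when a library was left out. Between the controls 0 were called, 2 (Twist1 and Twist2) at an unadjusted p with the fold change, and 0 to 2 when a library was left out, with 2 without floxed control replicate 2. The cause of these changes was not tested.

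With the replicate block, which treats the replicate number as a pairing, 2 factors were called in the cKO against the Cre controls, Zic1 and Osr1 (adjusted p = 0.0391 for Osr1). With the genotype means removed, libraries of the same number had r between -0.027 and 0.26 across genes, with a median of 0.10. Those of different numbers had r between -0.28 and 0.16, with a median of -0.053. The ranges overlapped, so the numbers were not taken to pair the libraries, but whether they do was not settled. Depth is unknown, and Prrx2, Foxc2 and Twist2 have the lowest deposited values of the 9, where shrinkage by the authors bears most on a difference.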
